A study of Mus musculus with 14 samples.

Results

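Levels of the Notch receptors *Notch1*, *Notch2*, *Notch3* and *Notch4*, the ligands *Jag1*, *Jag2* and *Dll1* and the target genes *Hes1*, *Hey1* and *Heyl* were examined in cultured skeletal cell clones with and without *Trp53*. These 10 genes were chosen by name, as the canonical receptors, ligands and targets of the pathway, among 30503 genes in the count table. *Notch2*, the most abundant receptor, was higher in p53-deleted clones of both ages than in control clones. *Hes1*, a transcriptional repressor induced by Notch signaling, was higher in the p53-deleted clones from 4-month-old mice. *Notch4* was lower in both p53-deleted groups, a call that was lost in each without 1 control clone. In the clones from 4-month-old mice it was lost in 10 of the 14 fits that each left out 1 clone. The remaining receptors, ligands and targets were not called against the control clones.

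Bulk RNA-seq was performed on 14 libraries, each from a cultured clone grown from a single tdTomato+ femoral bone marrow cell of a mouse that received tamoxifen at P21. The Fgfr3-WT group had the genotype *Fgfr3-creER; R26R(tdTomato/+)* and held 5 clones isolated at postnatal day 23 (P23) and grown to passage 8. The Fgfr3-p53 cKO groups carried in addition *Trp53fl/fl*, with 5 clones from postnatal day 28 (P28, passage 8) and 4 clones from 4 months of age (P4M, passages 6 to 8). All groups share the *Fgfr3-creER* transgene, which expresses a tamoxifen-inducible Cre in *Fgfr3*-expressing cells, the tdTomato reporter and the tamoxifen pulse. A single clone stands for a single founder cell after many passages, and the labels do not say whether clones of a group came from separate mice, so p-values measure the spread between clones, some of which may be related.

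Total counts lay between 25688946 and 38958693 in the Fgfr3-WT libraries and between 37606033 and 52857424 in the Fgfr3-p53 cKO libraries, so that 3 counts, the limit that a count of 0 allows, correspond to at most 0.121 CPM (counts scaled to the library size). This limit covers counting error only. *Trp53* itself lay between 49.9 and 68.2 CPM in the Fgfr3-WT clones and between 1.72 and 2.84 CPM in all Fgfr3-p53 cKO clones, as the labels give them. All Fgfr3-WT libraries carry the prefix 1303 in their sample names and all Fgfr3-p53 cKO libraries the prefix 2963, so a difference in library handling and one in genotype cannot be told apart. Of 6 skeletal mesenchymal markers, *Prrx1*, a transcription factor of limb skeletal cells, was found in every clone (4.53 to 789.9 CPM). *Pdgfra*, *Pdgfrb* and *Twist1* were at least 11.1 CPM in every clone. *Col1a2* was at most 0.842 CPM in Fgfr3-WT replicates 1 to 4, and *Col3a1* was at 0.130 CPM in Fgfr3-WT replicate 1. Of 6 blood markers, *Ptprc*, the pan-leukocyte marker, was at most 0.154 CPM. *Cd68* lay between 3.55 and 54.3 CPM in the Fgfr3-WT clones, and the other blood markers were at most 1.46 CPM in any clone. The P28 clones fell into 3 clones with little *Sp7* and *Alpl* and 2 clones, replicates 4 and 5, with much more of both.

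Notch receptors are single-pass membrane proteins that are activated by Jagged and Delta-like ligands on neighboring cells. Ligand binding leads to cleavage by an ADAM protease and then by γ-secretase, and the released intracellular domain enters the nucleus, where it joins the DNA-binding protein RBPJ and Mastermind-like coactivators to switch on genes of the *Hes* and *Hey* families. In the skeleton, Notch signaling is known to hold back osteoblast differentiation of bone marrow progenitors, and gain of Notch activity in osteoblast lineage cells has been linked to osteosarcoma. Transcript levels report on the supply of these components, not on cleavage of the receptors.

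Upstream sequences are shown for *Notch2* and *Notch4*, the 2 receptors that passed the test and moved in opposite directions. They come from RefSeq (GRCm38.p6), 5′ to 3′ on the strand of the gene, and end at the last base before the GENCODE start of the gene. Capitals mark a match to CACNAG, the N-box bound by HES proteins, on either strand. The *Notch2* sequence is chr3:98013288-98013526 (+ strand, 239 bp) and the *Notch4* sequence is chr17:34564045-34564267 (+ strand, 223 bp).
Notch2: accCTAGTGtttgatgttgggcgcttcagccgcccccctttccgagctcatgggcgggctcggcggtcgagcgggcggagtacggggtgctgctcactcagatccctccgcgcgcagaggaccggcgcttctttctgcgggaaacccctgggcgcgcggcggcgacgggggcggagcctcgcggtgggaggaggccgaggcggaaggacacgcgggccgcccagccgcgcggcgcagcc
Notch4: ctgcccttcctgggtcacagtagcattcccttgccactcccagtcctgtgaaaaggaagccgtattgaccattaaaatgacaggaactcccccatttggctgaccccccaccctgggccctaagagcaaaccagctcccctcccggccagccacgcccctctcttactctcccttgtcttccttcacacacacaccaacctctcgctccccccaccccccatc
The *Notch2* sequence had 74.1% G and C and 34 CpG dinucleotides, and the *Notch4* sequence 59.2% and 4, where the 32851 upstream windows of the RefSeq table, each 250 bp long, had medians of 52.4% and 6. Of the 10 genes, 7 matched that table, with 8 windows, all of receptors or ligands. The targets *Hes1*, *Hey1* and *Heyl* had no window in it, so no target promoter was searched. The letters TGGGAA, the core of the RBPJ site, occurred on neither strand in the 8 windows and in 21.6% of all windows. The E-box CACGTG also occurred in 0 of the 8 windows, against 6.02% of all windows. CACNAG occurred in 3 of the 8, those of *Notch1*, *Notch2* and *Notch3*, against 36.7% of all windows. All 8 windows lie before the RefSeq start, but only those of *Notch2*, *Notch3*, *Notch4*, *Jag1* and *Dll1* reached before the GENCODE start. The *Notch1* match thus lies inside the annotated gene. None of the matches in these windows overlapped another.

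Levels of different genes were compared per transcript length, as TPM. In the Fgfr3-WT clones the mean level was highest for *Notch2* (12.7 ± 4.53 TPM, SD, n = 5) and *Hes1* (10.8 ± 2.34), which differed by less than their spread. *Jag1* followed at 4.90 ± 2.45 TPM, and *Dll1*, *Hey1*, *Notch3*, *Notch4* and *Notch1* had means between 1.26 and 3.78 TPM with overlapping ranges. *Jag2* was lower still, at 0.664 ± 0.406 TPM, and *Heyl* was at 0. In the P4M clones *Hes1* stood first (41.5 ± 15.7 TPM, n = 4) and *Notch2* second (24.3 ± 0.897), and their ranges overlapped, since the lowest *Hes1* level was 22.05 TPM and the lowest *Notch2* level 22.98 TPM. *Notch2* made up a median of 72.1% of the summed TPM of the 4 receptors in the Fgfr3-WT clones, 85.7% in P28 and 85.9% in P4M. Its share was lowest, at 49.5%, in an Fgfr3-WT clone, replicate 4, where *Notch4* contributed 45.3% of receptor TPM. The receptors together summed to 18.2 ± 5.43 TPM in the Fgfr3-WT clones, 28.3 ± 2.12 TPM in P28 and 30.5 ± 5.32 TPM in P4M. The ratio of TPM to CPM varied 6.41-fold between clones for *Notch4*, 5.72-fold for *Jag2* and 4.87-fold for *Notch1*, against 1.43-fold for *Notch2* and 1.48-fold for *Hes1*. The cause of this variation was not tested, and comparisons between groups used counts.

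**Figure D1:**
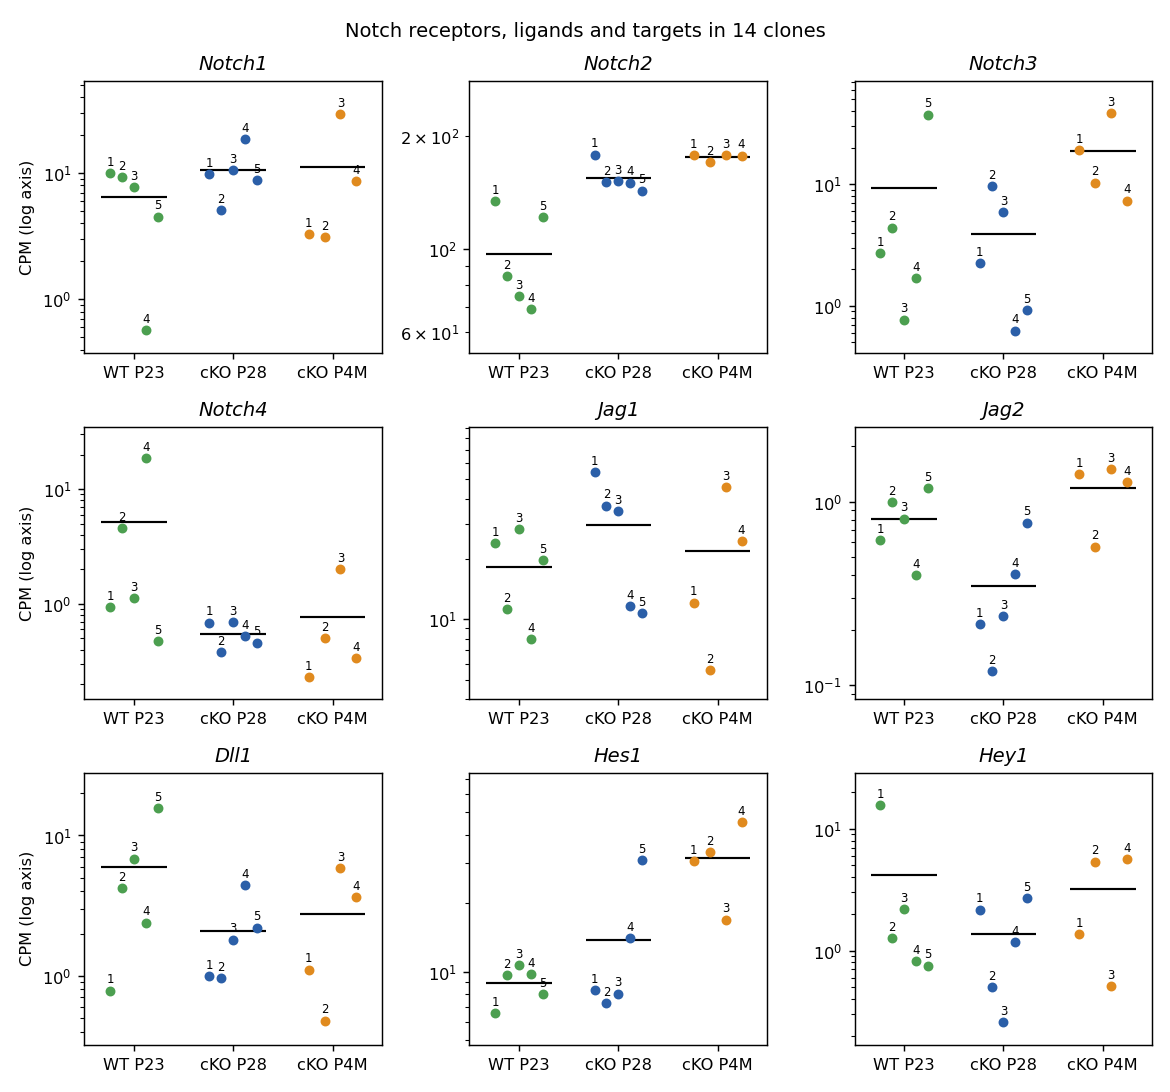
Level of each Notch gene in each clone, in CPM on a log axis, with numbers for the replicate within its group and a line for the group mean (Fgfr3-WT at P23, n = 5, Fgfr3-p53 cKO at P28, n = 5, and at P4M, n = 4). Notch2 in every cKO clone lay above every WT clone, Hes1 in every P4M clone lay above every WT clone, and the other genes overlapped between cKO and WT clones. Heyl, with 3 counts in all, is not drawn.

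Each cKO group was compared with the Fgfr3-WT clones and the cKO groups with each other. All 14 clones entered 1 model (edgeR quasi-likelihood, Benjamini-Hochberg adjustment over 17358 tested genes, called at an adjusted p under 0.05). The comparisons with Fgfr3-WT do not separate loss of p53 from age at isolation, time in culture or library handling. Of the 10 genes, 9 had enough counts to be tested. In P28 against Fgfr3-WT, 2 of the 9 were called, 1 higher and 1 lower, where 38.9% of all tested genes were called, 19.2% higher and 19.7% lower. In P4M against Fgfr3-WT, 3 of the 9 were called, 2 higher and 1 lower, with 45.9% of all genes called, 22.3% higher and 23.6% lower. In P4M against P28, 1 of the 9 was called, as higher, with 7.22% of all genes called, 3.34% higher and 3.88% lower. The Notch genes were therefore not called more often than genes at large in either comparison with Fgfr3-WT, and the 1 call between the cKO groups is too few to compare with the background. The median log2 fold change over the 9 genes was −1.19 in P28 and 0.57 in P4M relative to Fgfr3-WT and 0.49 when P4M was set against P28, and the medians over all tested genes were −0.02, −0.06 and −0.01. Both cKO comparisons share the same Fgfr3-WT clones.

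**Figure D2:**
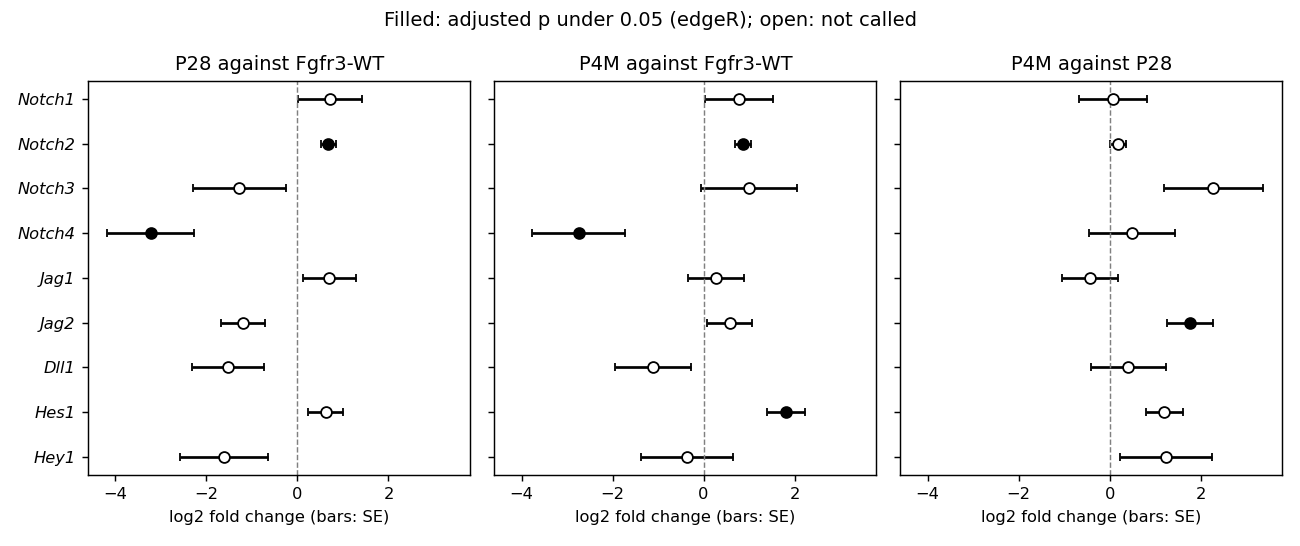
Log2 fold change of the 9 tested Notch genes in the 3 comparisons, with bars for 1 standard error (SE). Filled points passed an adjusted p of 0.05 in edgeR. Notch2 and Notch4 are filled in both comparisons with Fgfr3-WT, Hes1 in P4M relative to Fgfr3-WT and Jag2 when P4M was set against P28, and the bars of Notch2 are the shortest.

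*Notch2* (ENSMUSG00000027878, GRCm38 chr3:98013527-98150361, + strand) encodes a receptor expressed in marrow stroma and bone cells. Its level in the Fgfr3-WT clones 1 to 5 was 134, 84.6, 74.8, 68.8 and 121 CPM. P28 clones 1 to 5 had 179, 151, 152, 150.4 and 143 CPM, and P4M clones 1 to 4 had 178, 171, 178 and 177 CPM. Every cKO clone thus lay above every Fgfr3-WT clone, with a narrow gap between the highest Fgfr3-WT clone and the lowest P28 clone. Relative to Fgfr3-WT, the difference on the log2 scale was 0.68 in P28 (SE 0.173, adjusted p = 0.00748) and 0.86 in P4M (SE 0.182, adjusted p = 0.00198). Between the cKO groups it was 0.18 (SE 0.182, adjusted p = 0.561). Within each cKO group *Notch2* was the least variable of the 9 genes, with a highest level 1.25 times the lowest in P28 and 1.05 times in P4M, and in the Fgfr3-WT clones its ratio of 1.95 was second to that of *Hes1*, 1.62. The exons of *Notch2* share 541 bp with Gm42820 on the same strand. Leaving out any 1 clone kept both calls, with adjusted p of at most 0.0206 in P28 and 0.00588 in P4M. Genes of chromosome 3 as a whole had a median shift against the Fgfr3-WT mean, relative to other autosomes, of 0.176 in P28 and 0.315 in P4M on the log2 scale, and the part of this shift in the *Notch2* difference was not tested.

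*Notch4* (ENSMUSG00000015468, chr17:34564268-34588503, + strand) encodes a receptor found mainly in endothelium. Its level in the Fgfr3-WT clones 1 to 5 was 0.945, 4.59, 1.13, 18.7 and 0.475 CPM. In the P28 clones it was 0.688, 0.383, 0.696, 0.524 and 0.461 CPM, and in P4M 0.231, 0.501, 2.01 and 0.338 CPM. The ranges overlapped, since Fgfr3-WT replicate 5 lay inside the range of both cKO groups, and replicate 4 held most of the *Notch4* counts of its group. Relative to Fgfr3-WT, the difference on the log2 scale was −3.23 in P28 (SE 0.957, adjusted p = 0.0172) and −2.74 in P4M (SE 1.02, adjusted p = 0.0416). Without Fgfr3-WT replicate 4 the values became −1.69 (adjusted p = 0.0819) and −1.21 (adjusted p = 0.212), and neither was called. In P4M the value was −3.84 without P4M replicate 3 and still called, and the call was kept without Fgfr3-WT replicate 1, 3 or 5 but lost without any other clone. Without P28 replicates 4 and 5 the P28 value was nearly as large, −3.14, but not called (adjusted p = 0.0839). On the log2(TPM + 1) scale, which understates changes of low genes, limma called *Notch4* in neither group (−0.58, adjusted p = 0.272 in P28). Of 7 endothelial markers, 6 had a row in the table, *Cdh5* had 0 counts in all 14 clones, *Tie1* had no row in the count table and *Pecam1* was at most 0.287 CPM. Their summed level was 0.198 to 7.65 CPM in the Fgfr3-WT clones, 0.410 to 4.83 in P28 and 2.78 to 12.8 in P4M. In P4M this sum was mostly *Kdr* (2.59 to 12.6 CPM), and its highest Fgfr3-WT value, in replicate 2, was mostly *Erg* (7.46 CPM). *Tek* was at most 0.366 CPM and *Emcn* at most 0.0228 CPM in any clone. Fgfr3-WT replicate 4 was also the clone with the most *Col2a1*, 21551 CPM, and the most *Cd68*, 54.3 CPM, and their part in the *Notch4* difference was not tested.

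*Notch1* (ENSMUSG00000026923, chr2:26457903-26516663, - strand), the receptor best known from T cell development, was not called in any comparison. It lay between 0.569 and 9.97 CPM in the Fgfr3-WT clones, between 5.09 and 18.4 CPM in P28 and between 3.10 and 29.3 CPM in P4M. Fgfr3-WT replicate 4, which had the most *Notch4*, had the least *Notch1* of all clones. The log2 fold changes against Fgfr3-WT were 0.71 in P28 (SE 0.711, adjusted p = 0.452) and 0.78 in P4M (SE 0.747, adjusted p = 0.412). The exons of *Notch1* share 1068 bp with 0610009E02Rik and 414 bp with Gm13568, which lie on the opposite strand, and the library kit does not mark strand, so reads from the shared stretch cannot be assigned by strand. The exons of *Notch3* share 488 bp with Gm17276 and those of *Dll1* share 867 bp with A930024N18Rik in the same way.

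*Notch3* (ENSMUSG00000038146, chr17:32120820-32166852, - strand), a receptor typical of pericytes and vascular smooth muscle, spread more widely. Its level in the Fgfr3-WT clones was 2.70, 4.40, 0.769, 1.68 and 37.5 CPM, in the P28 clones 2.24, 9.63, 5.94, 0.625 and 0.922 CPM, and in P4M 19.2, 10.3, 38.4 and 7.35 CPM. Fgfr3-WT replicate 5 stood far above its group and came close to the highest P4M level, and the other Fgfr3-WT clones lay below every P4M clone. Relative to Fgfr3-WT, the difference on the log2 scale was −1.28 in P28 (SE 1.02, adjusted p = 0.343), 1.001 in P4M (SE 1.06, adjusted p = 0.463) and 2.28 between P4M and P28 (SE 1.08, adjusted p = 0.204). Without Fgfr3-WT replicate 5 the P4M value was 2.98 and passed the test (adjusted p = 0.0167), and the P28 value changed sign to 0.70 (not called). The same clone held 60.4 CPM of *Rgs5*, a pericyte marker that was at most 2.75 CPM in the other 13 clones, but *Abcc9* and *Kcnj8* had 0 counts in it and *Myh11* was at 0.317 and *Mcam* at 0.712 CPM. The summed level of the 6 pericyte and smooth muscle markers, mostly *Cspg4*, ranged from 106 to 194 CPM in Fgfr3-WT, 180.1 to 345 in P28 and 146 to 653 in P4M, and their part in the *Notch3* levels was not tested.

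Of the ligands, *Jag1* (ENSMUSG00000027276, chr2:137081456-137116644, - strand) was the most abundant in mean TPM in every group. The Fgfr3-WT clones had 23.9, 11.3, 28.2, 7.94 and 19.7 CPM, the P28 clones 54.3, 36.9, 34.6, 11.6 and 10.8 CPM and the P4M clones 12.1, 5.60, 45.7 and 24.6 CPM. Within P28, the 3 clones with little *Sp7* had more *Jag1* than all Fgfr3-WT clones, and replicates 4 and 5 lay within the Fgfr3-WT range. Relative to Fgfr3-WT, the difference on the log2 scale was 0.70 in P28 (SE 0.578, adjusted p = 0.358) and 0.27 in P4M (SE 0.609, adjusted p = 0.74), so no difference between groups was called.

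*Jag2* (ENSMUSG00000002799, chr12:112907819-112929776, - strand) was near the detection limit, with 5 to 76 counts in a library. It measured 0.619, 0.995, 0.809, 0.398 and 1.19 CPM in the Fgfr3-WT clones, 0.215, 0.120, 0.239, 0.403 and 0.769 CPM in P28 and 1.41, 0.569, 1.501 and 1.28 CPM in P4M. P4M and P28 overlapped only through P28 replicate 5 and P4M replicate 2. *Jag2* was the 1 gene called between the cKO groups, with a log2 fold change of 1.77 in P4M against P28 (SE 0.503, adjusted p = 0.0496). That call was kept without Fgfr3-WT replicate 1, 4 or 5 or P28 replicate 5 and lost without any of the other 10 clones (adjusted p up to 0.118). Against Fgfr3-WT the value was −1.19 in P28 (SE 0.485, adjusted p = 0.066) and 0.57 in P4M (SE 0.495, adjusted p = 0.363). The P28 value passed the test without Fgfr3-WT replicate 4 (adjusted p = 0.0459) or without P28 replicate 5 (adjusted p = 0.0128). Of 8 other settings, 6 left *Jag2* in P28 uncalled and the rest called it lower.

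*Dll1* (ENSMUSG00000014773, chr17:15367354-15376872, - strand), a Delta-like ligand, ranged from 0.782 to 15.7 CPM in the Fgfr3-WT clones, 0.956 to 4.41 CPM in P28 and 0.478 to 5.85 CPM in P4M. Its log2 fold change against Fgfr3-WT was −1.53 in P28 (SE 0.792, adjusted p = 0.143) and −1.11 in P4M (SE 0.841, adjusted p = 0.299). These intervals are wide, and neither a clear fall nor the same level is shown.

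*Hes1* (ENSMUSG00000022528, chr16:30064384-30067796, + strand) was the target that passed the test. The Fgfr3-WT clones had 6.58, 9.64, 10.7, 9.79 and 7.99 CPM, and the P28 clones 8.30, 7.29, 8.03, 14.1 and 31.0 CPM. The P4M clones had 30.6, 33.4, 16.9 and 45.3 CPM, all above every Fgfr3-WT clone. P28 clones 1 to 3 lay within the Fgfr3-WT range, P28 replicate 4 lay between that range and the P4M clones, and P28 replicate 5 lay within the P4M range. P4M differed from Fgfr3-WT by 1.82 on the log2 scale (SE 0.415, adjusted p = 0.00336), and this value stayed between 1.60 and 2.04 when any 1 clone was left out. In P28 it was 0.62 (SE 0.390, adjusted p = 0.225). Between P4M and P28 it was 1.201 (SE 0.410, adjusted p = 0.0874), and without P28 replicate 5 it was 1.77 and passed the test (adjusted p = 0.00846). DESeq2, with no clone left out, called *Hes1* higher in P4M than in P28. Genes of chromosome 16, where *Hes1* lies, had a median shift of −0.165 in P28 (−0.688 to 0.184 between clones) and −0.30 in P4M. The part of this shift in the *Hes1* levels was not tested.

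The P28 clones with more *Hes1* were those with more *Sp7*, a transcription factor required for osteoblast differentiation, which was picked with its values known. *Sp7* was at 3.38, 9.78, 5.47, 293 and 289.5 CPM in P28 clones 1 to 5 and at 381, 666, 132 and 441 CPM in P4M clones 1 to 4. It was at most 0.191 CPM in Fgfr3-WT replicates 1 to 4 and at 38.7 CPM in replicate 5. P4M replicate 3, with the least *Hes1* of its group, also had the least *Sp7*. Other clones did not follow this order. Fgfr3-WT replicate 5 had the most *Sp7* of its group but 7.99 CPM of *Hes1*, within the range of the other Fgfr3-WT clones. P28 replicates 4 and 5 had similar *Sp7* but 14.1 and 31.0 CPM of *Hes1*. P28 replicate 4 had more *Sp7* than P4M replicate 3 but less *Hes1* (14.1 against 16.9 CPM). The whole osteoblast list of 4 genes (*Runx2*, *Col1a1*, *Alpl* and *Bglap*) summed to 45.2 to 1205 CPM in Fgfr3-WT, 14890 to 22144 CPM in P28 and 8752 to 52546 CPM in P4M. In the cKO clones this sum was mostly *Col1a1*, which was high in all P28 clones. *Alpl* was at most 57.9 CPM in P28 replicates 1 to 3 and at 1858 and 916 CPM in replicates 4 and 5. *Bglap* was at most 0.495 CPM in the former and at 93.8 and 101.7 CPM in the latter. The 4 chondrocyte markers (*Sox9*, *Col2a1*, *Acan* and *Col9a1*) summed to 741.8 to 22885 CPM in Fgfr3-WT, 170.3 to 1324 CPM in P28 and 23.0 to 54.4 CPM in P4M. The part of either list in the *Hes1* and *Notch2* differences was not tested. Whether a clone holds more *Hes1* per cell or a larger share of *Hes1*-rich cells cannot be told apart in bulk RNA.

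**Figure D3:**
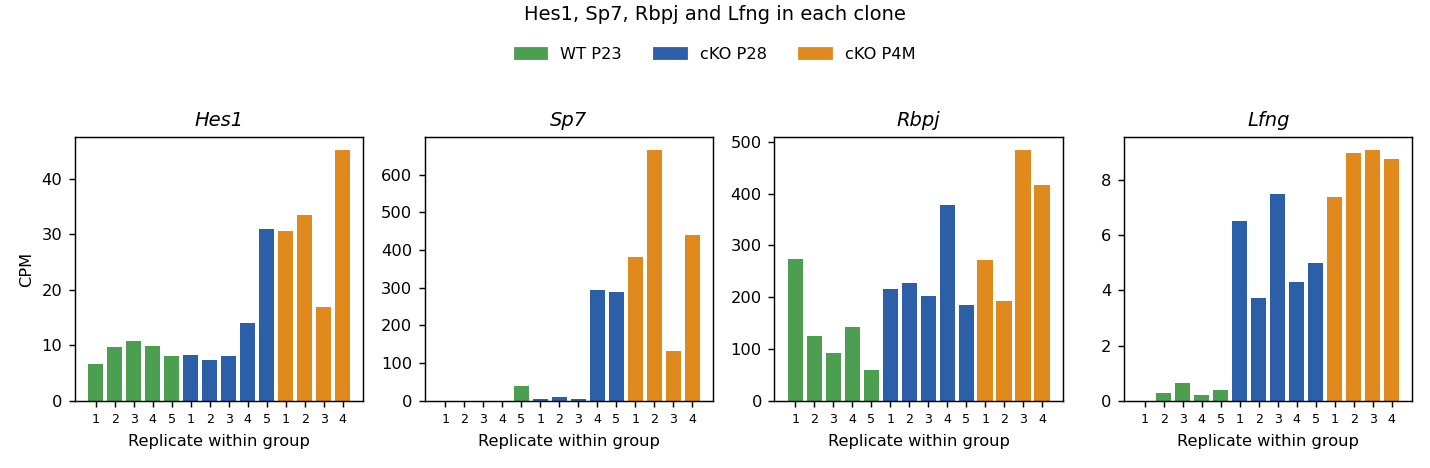
Level in CPM of Hes1, Sp7, Rbpj and Lfng in each clone, on linear axes from 0, with bars colored by group and numbered by replicate. P28 replicates 4 and 5 had more Hes1 and Sp7 than P28 replicates 1 to 3, P4M replicate 3 had the least of both within P4M, and Lfng was at most 0.647 CPM in WT clones and at least 3.73 CPM in cKO clones.

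The other targets were not called. *Hey1* (ENSMUSG00000040289, chr3:8663359-8667256, - strand), a repressor of the same family, measured 15.7, 1.26, 2.18, 0.825 and 0.752 CPM in the Fgfr3-WT clones, and ranged from 0.258 to 2.69 CPM in P28 and from 0.514 to 5.60 CPM in P4M. Fgfr3-WT replicate 1 stood above all other clones. Relative to Fgfr3-WT, the difference on the log2 scale was −1.61 in P28 (SE 0.970, adjusted p = 0.207) and −0.37 in P4M (SE 1.01, adjusted p = 0.788), and without that clone both turned positive, to 0.09 and 1.34, and neither was called. *Heyl* (ENSMUSG00000032744, chr4:123233556-123249875, + strand) had 3 counts over all 14 libraries, 2 in P28 replicate 1 and 1 in P4M replicate 1, and was not tested.

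P4M replicate 3 was the highest of the P4M clones for 7 of the 9 tested genes in CPM but for 4 in TPM (*Notch1*, *Notch3*, *Jag1* and *Dll1*), and the lowest for *Hes1* and *Hey1* on both scales. For *Notch2* its lead in CPM was slight, and for *Notch4* and *Jag2* another clone was higher in TPM. It carried 29.3 CPM of *Notch1*, where the other P4M clones had at most 8.61, and 45.7 CPM of *Jag1*, where they had at most 24.6.

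Beyond the 10 genes, 55 other pathway genes were listed by role, of which 47 were tested. In P28 against Fgfr3-WT, 9 rose, 8 fell and 30 were not called, and in P4M 15 rose, 10 fell and 22 were not called, where 38.9% and 45.9% of all tested genes were called. Between P4M and P28, edgeR called 0 as higher and 2 as lower, with 3 in each direction at an unadjusted p under 0.05. The median log2 fold change over the 47 was 0.03 in P28 and −0.02 in P4M against Fgfr3-WT, close to that of all genes.

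Among genes that add sugars to Notch receptors, *Lfng* (lunatic fringe, which extends O-fucose on the receptor and shifts its preference between Delta-like and Jagged ligands) showed the largest difference of the 47 tested genes in both comparisons with Fgfr3-WT. The Fgfr3-WT clones had 0, 0.268, 0.647, 0.199 and 0.396 CPM, the P28 clones 6.52, 3.73, 7.49, 4.31 and 4.995 CPM and the P4M clones 7.38, 8.99, 9.10 and 8.78 CPM. Every cKO clone lay above every Fgfr3-WT clone, with a log2 fold change of 4.17 in P28 (SE 0.620, adjusted p = 0.000297) and 4.83 in P4M (SE 0.648, adjusted p = 0.000119). Of the 4 tested sugar-transfer genes, 1 rose and 2 fell in each comparison with Fgfr3-WT.

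In the nuclear complex, 5 of 16 tested genes rose in P28, with 0 called lower in edgeR (also 0 lower at an unadjusted p under 0.05), and 7 rose and 1 fell in P4M. Of all tested genes, 19.2% rose and 19.7% fell in P28, and 22.3% rose and 23.6% fell in P4M, and with 16 genes nothing particular to the complex is read from these counts. *Maml3*, a Mastermind-like coactivator, rose by 1.77 in P28 (adjusted p = 0.0109) and 1.82 in P4M (adjusted p = 0.00965) on the log2 scale. *Rbpj*, the DNA-binding partner of all Notch receptors, was at 274, 125, 91.9, 142 and 58.9 CPM in Fgfr3-WT, 216, 227, 202, 378 and 185 CPM in P28 and 272, 193, 485 and 417 CPM in P4M. It rose in P4M (log2 fold change 1.30, SE 0.397, adjusted p = 0.0165), although Fgfr3-WT replicate 1 lay within the P4M range, and was not called in P28 (0.80, SE 0.376, adjusted p = 0.106). *Maml2* was 1 of the 2 genes that were lower in P4M than in P28 (−1.40, adjusted p = 0.0333).

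Of 10 cleavage genes, 2 rose and 4 fell in P28 (38.9% of all genes were called in either direction), and 3 rose and 4 fell in P4M (45.9%). Those that fell included *Psen2*, the presenilin 2 subunit of γ-secretase (−1.04 in P28, adjusted p = 0.00732), *Aph1c*, another subunit (−1.09, adjusted p = 0.0188 in P28, and −0.997, adjusted p = 0.033 in P4M), and *Psenen*, a further subunit (−1.31 in P4M, adjusted p = 0.000201). Of 12 tested genes for ubiquitin transfer and endocytosis, 2 fell and 0 rose in P28 (2 higher at an unadjusted p under 0.05), and 3 rose and 3 fell in P4M, beside the same shares of all genes. *Dtx3*, a deltex E3 ligase, fell most among the 47 genes in both, with a log2 fold change of −1.97 in P28 (adjusted p = 0.00075) and −2.23 in P4M (adjusted p = 0.000457). *Numbl*, a homolog of the Notch inhibitor Numb, was lower in P4M than in P28 (−1.13, adjusted p = 0.0104).

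**Figure D4:**
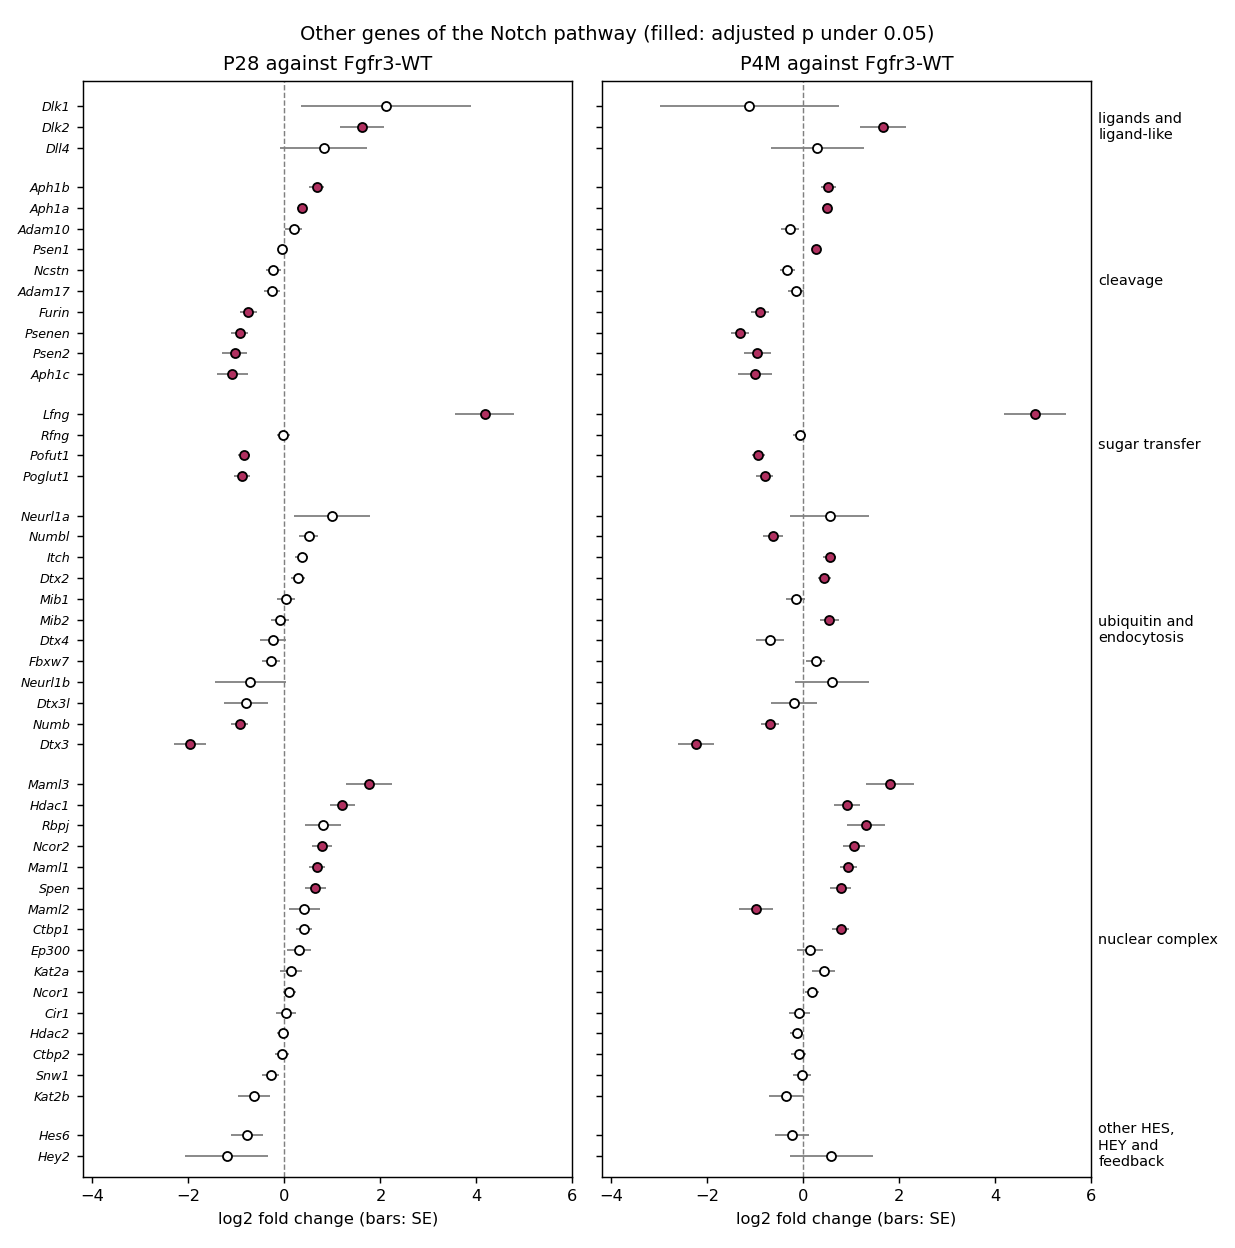
Log2 fold change of the 47 other tested genes of the Notch pathway in P28 (left) and P4M (right) against Fgfr3-WT, grouped by role, with bars for 1 SE. Filled points passed an adjusted p of 0.05 in edgeR. Lfng lies farthest to the right at 4.17 and 4.83 and Dtx3 farthest to the left at −1.97 and −2.23, and most nuclear complex genes that passed lie to the right.

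Among other ligands, *Dlk2*, a Delta-like protein without the domain that activates Notch, rose by 1.61 in P28 (adjusted p = 0.0133) and 1.67 in P4M (adjusted p = 0.0115) on the log2 scale. *Dlk1*, its relative, reached 28.5, 8.96 and 32.4 CPM in P28 replicates 1 to 3, at most 0.256 CPM in P28 replicates 4 and 5, 15.7 CPM in Fgfr3-WT replicate 3 and at most 4.52 CPM in P4M, and no comparison was called (adjusted p = 0.369 in P28). *Dll4*, an endothelial ligand, was at most 0.406 CPM in any clone. Of the remaining HES, HEY and feedback genes, *Hes6* was named after its values were seen. *Hes6* averaged 42.0 ± 15.1 CPM in Fgfr3-WT, 24.3 ± 9.33 in P28 and 35.9 ± 12.2 in P4M and was not called (log2 fold change −0.79 in P28, adjusted p = 0.077). *Hey2* was at most 1.90 CPM, *Nrarp*, a feedback inhibitor, was at 0 in all Fgfr3-WT clones and at most 0.159 CPM elsewhere, and *Hes5* was listed at 0 TPM in all 14 clones.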

How the data were processed

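RNA was taken from the 14 cultured clones, amplified with SMART-Seq v4 and sequenced as single-end reads. Per the labels and methods, the authors used TopHat with Bowtie2 for alignment (mm10) and HTSeq, for reads with an unambiguous position, followed by DESeq2. The counts per gene were used as deposited. TPM, scaled by the authors for transcript length and depth with a program that the methods leave unnamed, served for comparing genes. The deposited expected counts, FPKM, depth-normalized counts and rlog values were not used. All 14 clones entered 1 quasi-likelihood model of 3 group means in edgeR 4.0.16 (R 4.3.3), with filterByExpr by group and TMM scaling, and 17358 genes were tested (FDR 0.05). The SE is the absolute log2 fold change divided by the square root of F. CPM values are TMM-scaled. Alternatives were DESeq2 1.42.0, limma 3.58.1 on log2(TPM + 1), other scalings and filters, only the groups compared, and leaving out clones. Replicate numbers run in accession order within each group. Total counts set the precision given in the results. Gene positions and chromosomes come from GENCODE M21, and chromosome shifts use genes whose mean log2 CPM is 3 or more. The steps were tested on simulated data. Genes and lists were chosen with earlier results of these data known. Other pathway genes are named if among the 3 called genes with the highest or the 3 with the lowest log2 fold change of a comparison, where mean log2 CPM is 1 or more, and *Dll4*, *Dlk1*, *Rbpj*, *Nrarp*, *Hes5* and *Hey2* in any case.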

Additional observations from a re-analysis of the deposited data

Results flagged for a closer look

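In each of 27 checks of a gene within a group, the gap of an extreme clone to its nearest neighbor was taken as a share of the group's range. In 7 checks this share passed Dixon's cutoff, which is stricter for 4 clones than for 5. The 7 shares lay between 0.714 and 0.904. For normally distributed values, about 1 in 20 groups passes this cutoff. The CPM of these genes are skewed and the checks share clones, so the number of such gaps is a description. *Notch2* in P28 replicate 1 was at 179 CPM, with the next clone at 152. In P4M, *Notch2* was lowest in replicate 2 at 171 CPM, with the nearest clone at 177, a small step in a tight group. *Notch3* in Fgfr3-WT replicate 5 was at 37.5 CPM, with the next at 4.40. *Notch4* stood out in Fgfr3-WT replicate 4 at 18.7 CPM (next 4.59) and in P4M replicate 3 at 2.01 CPM (next 0.501), but in TPM the latter clone, at 0.47, was below P4M replicate 2 at 0.54. *Hes1* in P28 replicate 5 was at 31.0 CPM, with the next at 14.1, and *Hey1* in Fgfr3-WT replicate 1 was at 15.7 CPM, with the next at 2.18. The difference between the effects in the 2 cKO groups passed the edgeR test for *Jag2*, at 1.77 on the log2 scale.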

How the results depend on the processing

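The calls of *Notch2* against Fgfr3-WT in both cKO groups and of *Hes1* in P4M were kept in every fit that left out 1 clone and under every other tool, scaling and filter, except that *Notch2* misses a minimum absolute log2 fold change of 1. In P28 against Fgfr3-WT, 2 genes were called, 1 with that minimum, 1 with limma on log2(TPM + 1), and 2 to 3 when 1 clone was left out. *Jag2* in P28, not called in the main fit, was called lower in some settings other than leaving out 1 clone. In P4M against Fgfr3-WT, 3 were called, 2 with that minimum, without a filter, with only the groups compared, with limma or without P28 replicates 4 and 5, and 2 to 4 when 1 clone was left out. In P4M against P28, 1 was called, 2 with DESeq2, 2 without P28 replicates 4 and 5 (chosen after the data were seen), and 0 to 2 when 1 clone was left out. There, 0 were called by edgeR with RLE scaling, library totals only or no filter (2 each at an unadjusted p under 0.05), by edgeR with at least 10 counts in every clone, which leaves *Jag2* out (1), and by limma (1). Directions turned for genes that were not called. Leaving out 1 clone gave −1.97 to 0.70 for *Notch3* and −2.03 to 0.085 for *Hey1* in P28, −0.35 to 1.10 for *Notch1*, −0.36 to 0.60 for *Jag1* and −0.77 to 1.34 for *Hey1* in P4M, and −1.07 to 0.40 for *Notch1*, −0.62 to 0.82 for *Notch4* and −0.25 to 0.91 for *Dll1* in P4M against P28. The clones that turned these were Fgfr3-WT replicate 5 (*Notch3*) and 1 (*Hey1*), and P4M replicate 3 for the others, with P28 replicate 2 also turning *Notch1* between the cKO groups. *Hes1* in P28 became −0.21 without P28 replicates 4 and 5, the clones with the most *Hes1* of that group. This shift, and the *Hes1* call that fit added in P4M against P28, follow from the choice of clones. They are not read as a test. DESeq2, with no clone left out, also called *Hes1* in P4M against P28. On log2(TPM + 1), *Jag2* was −0.068 and *Hey1* 0.11 in P4M against Fgfr3-WT, and *Notch1* was −0.29, *Notch2* −0.0066 and *Notch4* −0.17 in P4M against P28, and the cause was not tested. *Notch4* in P4M was not called without a filter (adjusted p = 0.0664) or with only the groups compared (adjusted p = 0.0977). No paired analysis was possible because replicate numbers were assigned in accession order. The depth limits *Jag2*, *Notch4* and *Heyl* most.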
